A study of Mus musculus with 8 samples.

Results

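Embryonic kidneys that had been exposed to chlorpyrifos in early gestation were compared with solvent controls late after dosing, at embryonic stages E16.5 and E18.5, which lie 5 and 7 days after the last dose. Of the 8 RNA-seq libraries of the study, 4 fall in these stages: 1 CPF and 1 DMSO library at E16.5 and 1 of each at E18.5. The members of the comparison are these 4 libraries, chosen by stage alone, and the question is which genes lay on the same side of the control at both stages. Mothers were outbred ICR mice aged 8 weeks. In the CPF group they received chlorpyrifos (CPF) dissolved in dimethyl sulfoxide (DMSO) under the skin, at 5 mg per kg each day from gestation day 7.5 to 11.5, and in the control group the same volume of DMSO alone, so all embryos had been exposed to DMSO. The labels give the tissue as embryonic kidney and the material as total RNA, and the sources used here do not say how many embryos or litters each library holds. With 1 library per agent and stage, the only replication is across the 2 stages. The p-values rest mainly on how much such differences varied between stages among genes of like level, and not on how much animals vary. A call therefore does not show that a gene's own difference was alike at both stages.

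Chlorpyrifos is an organophosphate insecticide that the body converts to an oxon, which blocks acetylcholinesterase and other serine hydrolases and is cleared in part by paraoxonases. The mouse kidney forms while a pool of Six2-positive progenitors in the cap mesenchyme both renews itself and gives rise to nephrons, driven by signals from the branching ureteric bud and the surrounding stroma. Late in gestation proximal tubules, glomeruli and collecting ducts mature while progenitors are still present. Metallothioneins are small zinc-binding proteins whose genes are switched on by metals, glucocorticoids and oxidants. Immediate early genes such as Fos are switched on within minutes of many stimuli, handling of tissue included.

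Values are TPM, transcripts per 1000000 after scaling by transcript length. Depth was recovered only as an estimate, of 21.15 to 27.1 reads per late library in units of 1000000 reads, and 1 read in a transcript of 1 kb was worth 0.0608 to 0.105 TPM. The make-up of the libraries differed between the agents. The 2 abundant non-coding RNAs Rpph1 and Rmrp, the RNA parts of RNase P and RNase MRP, made up 21.8% (E16.5) and 21.3% (E18.5) of the CPF libraries and 31.0% and 41.8% of the DMSO libraries. Coding (NM) rows held 73.1 and 73.9% in the CPF libraries and 63.2 and 53.3% in the DMSO libraries. Because the rest of a TPM library moves with such a share, each difference was computed with TPM as deposited and again with each library scaled to its NM rows. As deposited, the median log2 ratio of all 12602 tested genes was 0.13 at E16.5 and 0.57 at E18.5, and after NM scaling it was -0.06 and 0.16. Changes are to be read against these medians. Wt1, a transcription factor of progenitors and podocytes, was at 76.0 TPM (CPF) and 104 TPM (DMSO) at E16.5 and at 107 and 69.9 TPM at E18.5. It is also a member of the gonad list used below, so it cannot by itself show that the RNA was from kidney.

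Among the 12602 genes, 4035 (32.0%) were higher in CPF at both stages under both scalings and 1094 (8.68%) were lower at both stages under both. Fitted over the 4 libraries with limma, with stage as a term, 333 genes were called higher in CPF (2.64% of those tested) and 70 lower (0.555%), at a Benjamini-Hochberg adjusted p under 0.05. Counts of list members given below are to be read against these shares of all tested genes. Many genes named below were picked for 1 sign at both stages, so separation of their CPF and DMSO values partly follows from the choice. The share of all genes separated in this way was not counted. The fit replaced each gene's own spread, known from 1 residual degree of freedom, almost wholly by that of genes of like level. Of these 403 genes, 388 kept 1 sign at both stages under both scalings, 318 of them higher and 70 lower. After NM scaling only 12 genes (0.0952%) were called, all 12 being among the 403. The 10 higher were the plasma protein genes Alb, Apoa1, Fgg, Gc, Pzp and Trf, the liver urea cycle gene Cps1, the growth factor binding protein gene Igfbp1, and Mt1 and Mt2. The 2 lower were the small RNA genes Mir6412 and Rprl3. Quantile normalization left 0 genes called by limma, with 1345 at an unadjusted p under 0.05 (601 higher). Without the E16.5 pair the count was 3080 and without the E18.5 pair 716, each in a fit that shared the spread with the earlier stages.

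By size alone, 233 of 9582 genes (mean of 5 TPM or more) were more than 2-fold higher in CPF at both stages (2.43%) and 28 were more than 2-fold lower at both (0.292%). Under both scalings 134 passed higher and 28 lower. The higher set held 25 genes of the list of liver plasma proteins, and 106 of the 134 belonged to none of the lists for liver, pancreas, adrenal gland, sympathoadrenal cells, gonad, blood or skeletal muscle. Small RNA genes made up 18 of the 28 lower genes. The E16.5 and E18.5 pairs share no library, and 67.4% of these 9582 genes had the same sign at both stages (5754 higher and 700 lower). With NM scaling, which moves both medians toward 0, the share was 58.6% (3147 higher and 2471 lower). Across genes, which are not independent of each other, the 2 ratios had a Pearson correlation of 0.257 and a Spearman correlation of 0.304. With NM scaling the 2-fold counts were 135 higher and 61 lower, and with quantile normalization 89 and 69. The sizes were unequal between stages: 469 genes were past 2-fold higher at E16.5 against 2207 at E18.5. These counts were 359 and 950 with NM scaling and 331 and 627 with quantile normalization.

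**Figure D1:**
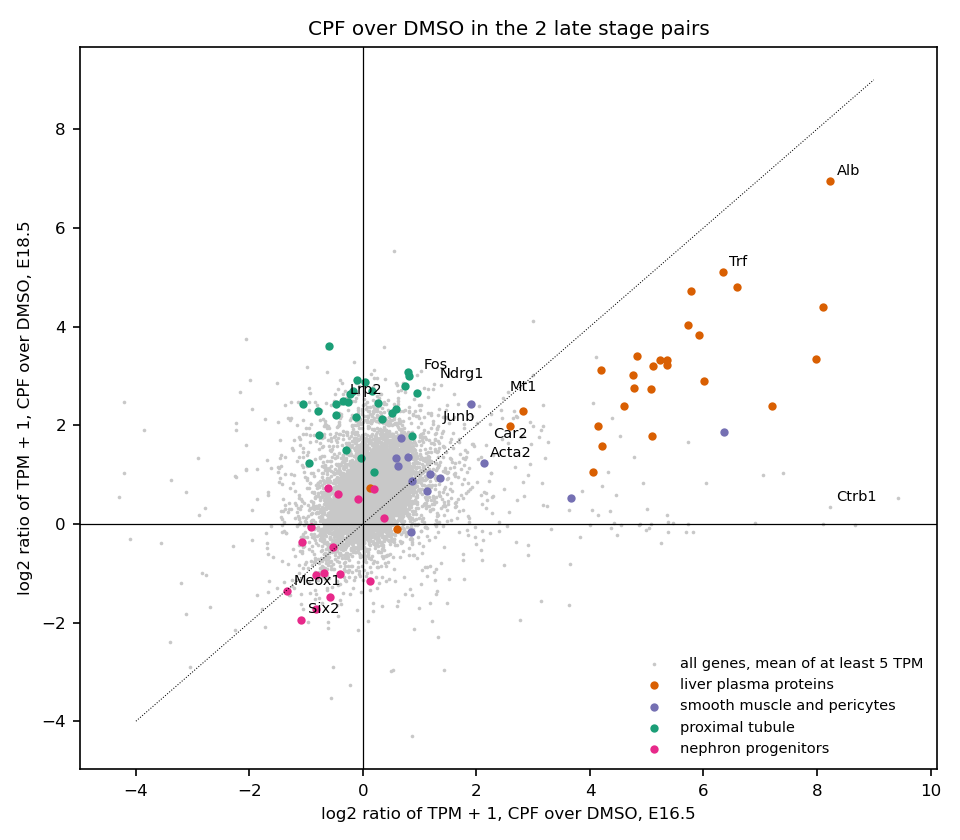
Log2 ratio of TPM + 1, CPF over DMSO, at E16.5 (x axis) against E18.5 (y axis), 1 point per gene whose mean reached 5 TPM; the dotted line marks equal ratios, colours mark 4 gene lists and some genes are labelled. Liver genes such as Alb and Trf lie at the far upper right, proximal tubule genes lie high at E18.5 alone, and Six2 and Meox1 lie at the lower left.

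The genes that differed most in the same direction encode plasma proteins that fetal liver secretes. Of 34 tested members of the liver list, 31 were higher at both stages under both scalings (against 32.0% of all genes), 28 rose by the test and 0 were lower at both stages. The list's median log2 ratio was 4.80 at E16.5 and 2.75 at E18.5. Albumin (Alb, chr5:90460870-90476602 in GRCm38), the main plasma protein, was at 2036 and 373 TPM in the CPF libraries of E16.5 and E18.5 and at 5.77 and 2.03 TPM in the DMSO libraries. Every CPF value was far above every DMSO value, and the E16.5 library held the most. The ratios were 353-fold and 183-fold, and the log2 difference was 7.59 ± 0.36 (SE; limma adjusted p 0.0272 after NM scaling). Transferrin (Trf, chr9:103208876-103230286), the iron carrier of plasma, was at 935 and 269 TPM in CPF against 10.55 and 6.86 TPM in DMSO, a log2 difference of 5.72 ± 0.36. Apoa1, the main protein of high-density lipoprotein, was at 266 and 40.5 TPM in CPF against 1.78 and 0.493 TPM in DMSO. Fgg, a fibrinogen chain, was at 105 and 45.3 TPM against 0.934 and 0.762 TPM. None of these pairs overlapped, and all 3 remained called after NM scaling (limma adjusted p 0.0466 for Trf, 0.0452 for Apoa1 and 0.0159 for Fgg). All 3 were picked for high ratios at both stages, so their separation partly follows from the choice. The alpha-fetoprotein gene Afp, made by fetal liver and yolk sac, was at 1956 and 270 TPM in CPF and at 46.75 and 26.1 TPM in DMSO. Ambp, which encodes the precursor of alpha-1-microglobulin and bikunin, was at 135 and 16.7 TPM in CPF and at 4.02 and 1.19 TPM in DMSO. Serpina6, the gene of the plasma carrier of corticosteroids, was higher by 8.11 and by 4.39 on the log2 scale and did not pass, since its difference varied between stages (656 and 268 TPM against 1.39 and 11.8 TPM; limma adjusted p 0.13).

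Markers of other organs and of blood were also higher in CPF at E16.5. At E18.5, as deposited, the median log2 ratios of the pancreas (0.40), skeletal muscle (0.56) and erythroid (0.36) lists did not exceed the 0.57 of all genes. Those of the liver (2.75), adrenal (0.82), sympathoadrenal (0.80) and gonad (0.62) lists did, also with NM scaling. With NM scaling the pancreas (0.24) and skeletal muscle (0.38) lists exceeded the 0.16 of all genes too, and the erythroid list (0.01) did not. The summed liver list was at 8002 and 1845 TPM in the CPF libraries of E16.5 and E18.5, and at 221 and 206 TPM in the DMSO libraries. The summed pancreas list was at 3222 TPM in the CPF library of E16.5 and between 48.8 and 56.6 TPM in the other late libraries. Ctrb1, a digestive protease precursor of the exocrine pancreas, was at 913 TPM in the CPF library of E16.5 and at 0.356 TPM in that of E18.5, against 2.06 and 0.0689 TPM in DMSO. The list of adrenal cortex and steroid synthesis summed to 877 and 201 TPM in CPF and to 136 and 87.6 TPM in DMSO. Its steroid enzymes Hsd3b1 and Cyp11a1 were at 165 and 108 TPM in the CPF library of E16.5 and at 2.15 TPM or less in each of the other 3. Erythroid markers summed to 1344 and 288 TPM in CPF against 748 and 189 TPM in DMSO, and the red-cell genes Hemgn (49.1, 1.68 TPM in CPF and 1.69, 0.579 TPM in DMSO) and Klf1 (31.5, 1.71 and 1.23, 0.713 TPM) were high in 1 library alone. Skeletal muscle markers summed to 296 and 50.4 TPM in CPF against 138 and 32.9 TPM in DMSO. The liver genes thus stood apart at both stages, while pancreas and steroid enzyme genes stood apart in the CPF library of E16.5. None of the 7 lists was at 0 in a DMSO library. The part of these markers in the results that follow was not tested, and in bulk tissue fewer cells of a type and less RNA per cell cannot be told apart. Without the genes of the liver list, limma called 375 genes, 305 higher and 70 lower.

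**Figure D2:**
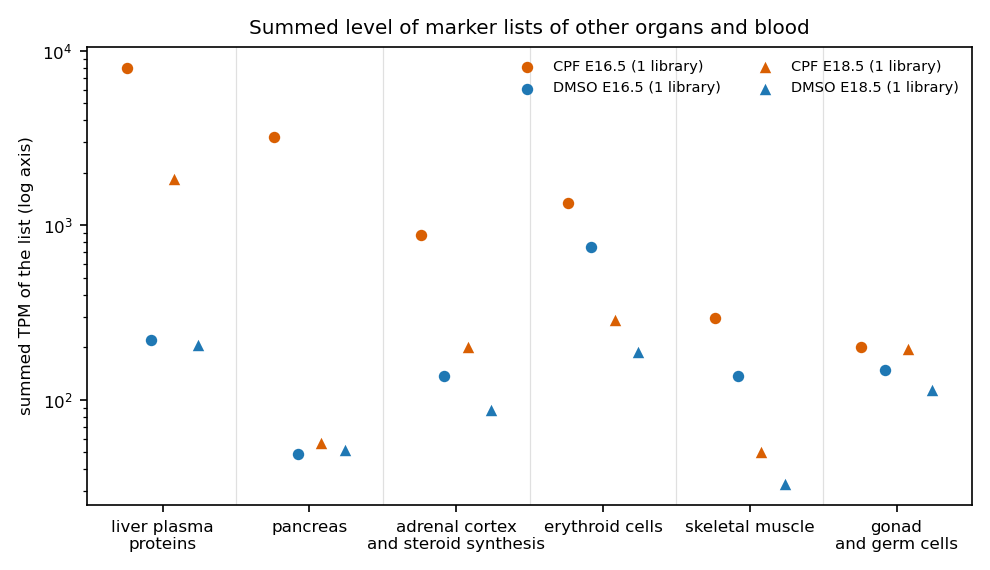
Summed TPM (log axis) of marker lists of other organs and blood in the 4 late libraries, CPF and DMSO at E16.5 and E18.5, 1 point per library. The liver sum is 8002 and 1845 TPM in CPF against 221 and 206 TPM in DMSO, and the pancreas sum is high in the CPF library of E16.5 alone (3222 TPM).

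Metallothionein genes were higher by similar amounts at both stages. Mt1 was at 191 and 145 TPM in the CPF libraries of E16.5 and E18.5 and at 33.6 and 23.7 TPM in the DMSO libraries. Mt2 was at 191 and 107 TPM in CPF and at 34.2 and 23.5 TPM in DMSO. Both CPF libraries lay above both DMSO libraries for each gene. Mt1 rose by 2.52 ± 0.36 on the log2 scale (5.69-fold at E16.5 and 6.10-fold at E18.5), and Mt2 by 2.30 ± 0.36. Both passed after NM scaling too (2.20 and 1.98, limma adjusted p 0.0405 and 0.0466). Liver also expresses both genes, and what share of the Mt1 and Mt2 signal came with the liver RNA was not tested. The Mt1 ratio was 5.69 and 6.10 while that of Alb was 353 and 183. These ratios cannot give that share, since the DMSO levels differed: 33.6 and 23.7 TPM for Mt1, and 5.77 and 2.03 TPM for Alb. Of the 5 tested members of the list of metallothioneins and zinc carriers these were the 2 called. Slc30a1, the zinc exporter of the plasma membrane, was at 19.9 and 34.6 TPM in CPF against 13.5 and 12.7 TPM in DMSO (log2 difference 0.95 ± 0.42, limma adjusted p 0.22). At the earlier stages Mt1 was already higher in CPF, at 20.4 against 5.67 TPM at E12.5 and 127 against 31.2 TPM at E14.5, and its late minus early difference of 0.68 ± 0.39 did not pass (limma adjusted p 0.38).

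The promoters of the 2 genes are shown because both rose together and lie next to each other on chromosome 8. The windows run from 250 bases before to 30 bases after the start taken for each gene, on the plus strand, 5′ to 3′ (GRCm38.p6, chr8:94178839-94179118 for Mt1 and chr8:94172368-94172647 for Mt2). For Mt2 this start is that of its RefSeq gene span. The RefSeq gene span of Mt1 begins further upstream, at chr8:94178883, so most of its window lies within that span. Capitals mark matches to TGCNCNC, the core of the metal response element bound by the zinc sensor MTF1, searched on both strands with overlaps allowed.
Mt1: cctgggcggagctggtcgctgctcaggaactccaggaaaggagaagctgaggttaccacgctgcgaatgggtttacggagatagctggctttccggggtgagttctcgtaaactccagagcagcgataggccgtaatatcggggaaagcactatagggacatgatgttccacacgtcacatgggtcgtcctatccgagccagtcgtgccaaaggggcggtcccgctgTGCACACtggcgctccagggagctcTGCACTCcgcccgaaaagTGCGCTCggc
Mt2: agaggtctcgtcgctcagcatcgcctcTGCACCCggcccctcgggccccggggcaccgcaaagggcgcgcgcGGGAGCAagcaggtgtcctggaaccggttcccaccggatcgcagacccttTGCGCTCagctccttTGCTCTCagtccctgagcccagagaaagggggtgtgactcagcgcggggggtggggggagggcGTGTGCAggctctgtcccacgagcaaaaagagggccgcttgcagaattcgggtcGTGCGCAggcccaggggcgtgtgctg
Mt1 holds 3 matches, all on the strand of the gene, and Mt2 holds 6, of which 3 are on the strand of the gene. At least 1 match was present in 48.5% of 32851 windows of the same length, at least 3 in 6.11%, and at least 6 in 0.155%. A match is a stretch of letters and was not tested as a site.

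Carbonic anhydrase 2 (Car2, chr3:14886269-14900770), which handles acid and bicarbonate in collecting duct and other cells, was at 237 and 217 TPM in the CPF libraries and at 51.7 and 70.8 TPM in the DMSO libraries. Both CPF values exceeded both DMSO values. Car2 rose by 1.89 ± 0.34 on the log2 scale (limma adjusted p 7.57e-06, and 0.097 after NM scaling). Of 11 tested carbonic anhydrases 3 rose and 6 (54.5%, against 32.0% of all genes) were higher at both stages under both scalings. Red cells also carry carbonic anhydrase 2, and the erythroid sums given above were higher in CPF at both stages. Of the 13 tested erythroid genes 7 were higher and 6 lower at E18.5. Their median of 0.36 lay below the 0.57 of all genes. These list values cannot give the share of Car2 that came from red cells, which was not tested.

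Of the immediate early genes, 12 of 19 (63.2%, against 32.0% of all genes) were higher at both stages under both scalings and 3 rose. The transcription factor gene Fos (chr12:85473890-85477274) was at 116 and 21.4 TPM in the CPF libraries of E16.5 and E18.5 and at 59.2 and 1.77 TPM in the DMSO libraries. Its CPF and DMSO values overlapped across stages, since both agents' values were lower at E18.5, but within each stage CPF was the higher one. Junb (chr8:84976909-84978748), a partner of Fos, was at 55.1 and 19.8 TPM in CPF and at 21.8 and 4.39 TPM in DMSO. Fos rose by 1.98 ± 0.40 and Junb by 1.62 ± 0.42 on the log2 scale (limma adjusted p 0.000118 and 0.00821), and neither passed after NM scaling (0.43 and 0.15). Without the E18.5 pair Fos did not pass (limma adjusted p 0.0866).

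Of 15 tested genes of smooth muscle and pericytes, 13 were higher at both stages under both scalings and 4 rose, with list medians of 1.13 at E16.5 and 1.00 at E18.5. Smooth muscle actin (Acta2, chr19:34240336-34255585) was at 515 and 333 TPM in the CPF libraries and at 117 and 141 TPM in the DMSO libraries. All CPF values were above all DMSO values, with a log2 difference of 1.68 ± 0.33 (limma adjusted p 5.91e-05, and 0.22 after NM scaling). Cardiac actin (Actc1), an early isoform of muscle, rose as well, from 24.2 and 0.921 TPM in DMSO to 93.4 and 9.36 TPM in CPF. Actg2, the actin of visceral smooth muscle, was at 358 TPM in the CPF library of E16.5 and between 3.35 and 15.3 TPM in the other 3 late libraries, and did not pass (limma adjusted p 0.40). Of 28 interstitial collagen and matrix genes 16 (57.1%, against 32.0% of all genes) were higher at both stages under both scalings and 4 rose. Among them Col6a2, a chain of the beaded-filament collagen VI, was at 220 and 146 TPM in CPF and at 70.8 and 61.0 TPM in DMSO (log2 difference 1.43 ± 0.34). Mgp, an inhibitor of calcification, was at 92.0 and 133 TPM in CPF and at 37.3 and 61.7 TPM in DMSO. Akr1b7 (chr6:34412362-34423137), an aldo-keto reductase of renin-lineage cells and of the adrenal cortex, was at 229 and 54.5 TPM in CPF and at 55.0 and 21.4 TPM in DMSO. It rose by 1.67 ± 0.36 (limma adjusted p 0.000424), and the adrenal list it also belongs to was higher in the same libraries. Agt, which encodes angiotensinogen and is made in liver and kidney, was at 20.5 and 7.57 TPM in CPF and at 0.293 and 0.562 TPM in DMSO.

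**Figure D3:**
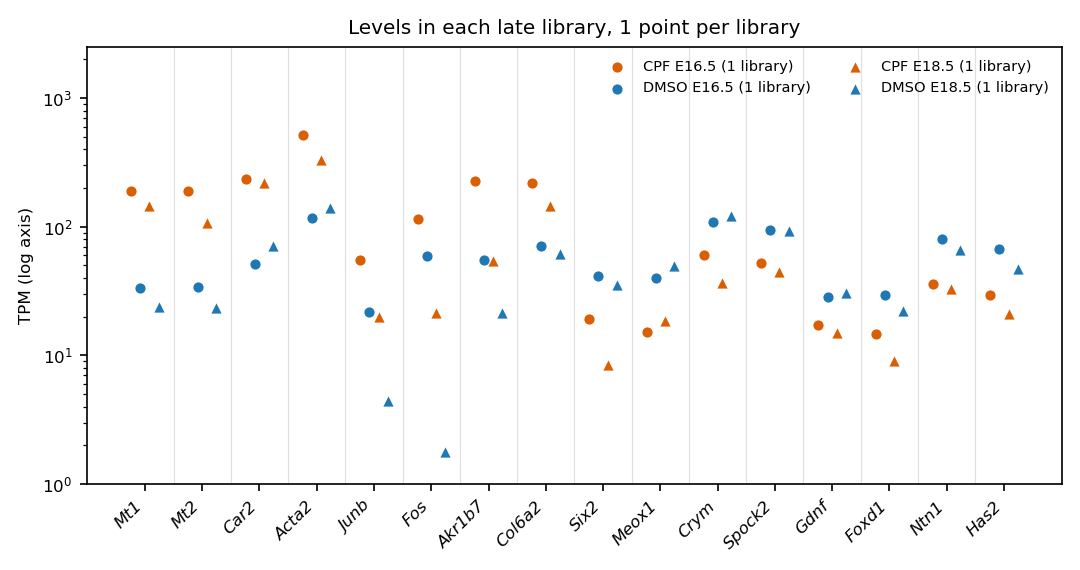
TPM (log axis) of named genes in the 4 late libraries, CPF and DMSO at E16.5 and E18.5, 1 point per library. Mt1 and Mt2 are at 107 TPM or more in CPF and at 34.2 TPM or less in DMSO, while the 8 genes from Six2 to Has2 lie lower in CPF at both stages.

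Genes of the nephron progenitor pool were lower in CPF. Of 20 tested members of the list 12 were lower at both stages under both scalings (8.68% of all genes were), 0 were higher at both, and 3 fell by the test: Six2, Meox1 and Crym. The list's median log2 ratio was -0.60 at E16.5 and -0.73 at E18.5, against medians of 0.13 and 0.57 for all genes, and 17 of its 20 members were lower at E16.5 and 13 at E18.5. Six2 (chr17:85662736-85688254), the transcription factor that keeps progenitors undifferentiated, was at 19.1 and 8.38 TPM in the CPF libraries and at 41.6 and 35.1 TPM in the DMSO libraries. Meox1 (chr11:101877510-101894354), a homeobox gene of the cap mesenchyme, was at 15.2 and 18.47 TPM in CPF and at 39.9 and 49.3 TPM in DMSO. Crym, a thyroid hormone-binding protein expressed in the cap, was at 60.9 and 36.2 TPM in CPF and at 108 and 121.5 TPM in DMSO. In each of the 3 genes both CPF libraries lay below both DMSO libraries. Meox1 was picked for low ratios at both stages, and Crym after its values were seen. For Meox1 and Crym the separation partly follows from the choice. Six2 fell by 1.51 ± 0.41, Meox1 fell by 1.35 ± 0.39 and Crym fell by 1.27 ± 0.35 on the log2 scale (limma adjusted p 0.0121, 0.0247 and 0.0182), and after NM scaling the differences were larger (-1.87, -1.70 and -1.61) but none passed (0.11, 0.07 and 0.15). Crym did not pass without the E18.5 pair (limma adjusted p 0.138).

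Other progenitor genes were lower without passing. Gdnf, the signal by which progenitors drive ureteric branching, was at 17.3 and 14.8 TPM in CPF and at 28.5 and 30.7 TPM in DMSO (log2 difference -0.85 ± 0.41, limma adjusted p 0.27). Spock2, a proteoglycan, was at 52.7 and 44.9 TPM in CPF and at 94.7 and 93.2 TPM in DMSO (adjusted p 0.13 by limma). The groups did not overlap for either gene, though Spock2 was picked for its low ratios at both stages. Eya1, a cofactor of Six2, was at 1.20 and 0.702 TPM in CPF and at 3.44 and 2.51 TPM in DMSO. Not all progenitor genes had this pattern: Pax2 was at 16.02 TPM in CPF and 25.2 TPM in DMSO at E16.5, and at 26.55 and 15.5 TPM at E18.5. Mki67, a marker of cycling cells, was at 408 and 306 TPM in CPF and at 308 and 231 TPM in DMSO (log2 difference 0.40 ± 0.32, limma adjusted p 0.56). After NM scaling its log2 ratios were 0.20 at E16.5 and -0.07 at E18.5, so its sign was not kept. The 29 tested genes of DNA replication and mitosis had medians of 0.26 and 0.16 as deposited. With NM scaling these medians were 0.06 and -0.31.

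**Figure D4:**
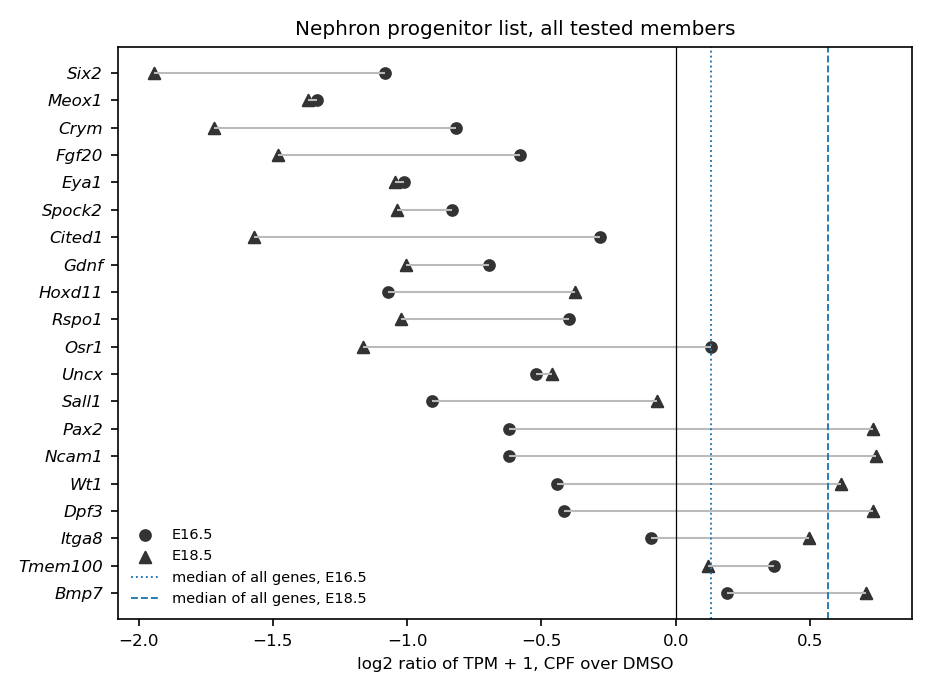
Log2 ratio of TPM + 1, CPF over DMSO, of the 20 tested nephron progenitor genes at E16.5 and E18.5, 1 point per gene and stage (circles E16.5, triangles E18.5), with blue lines at the medians of all tested genes. Of the 20 genes 17 lie below 0 at E16.5 and 13 at E18.5, and Six2 lies at -1.08 and -1.94.

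The stromal list had 2 of 17 members higher (11.8%, against 32.0% of all genes) and 4 lower (23.5%, against 8.68%) at both stages under both scalings, and 0 called by limma. The list of ureteric tip and branching had 2 of 15 higher (13.3%) and 4 lower (26.7%), also with 0 called. Foxd1 (chr13:98354245-98356705), the transcription factor of stromal progenitors, was at 14.8 and 9.04 TPM in CPF and at 29.3 and 22.1 TPM in DMSO (log2 difference -1.07 ± 0.43, limma adjusted p 0.15). Ntn1, a secreted guidance protein of the stroma, was at 36.1 and 32.8 TPM in CPF and at 79.8 and 66.5 TPM in DMSO (-1.06 ± 0.36, limma adjusted p 0.076). Etv4, a transcription factor downstream of Ret in the ureteric tip, was at 48.3 and 33.0 TPM in CPF and at 75.2 and 82.2 TPM in DMSO (-0.96 ± 0.36, limma adjusted p 0.12). In all 3 both CPF libraries lay below both DMSO libraries, and none passed the test. List members were picked for 1 sign at both stages, so this separation partly follows from the choice. Lum, a matrix proteoglycan of stroma, lay the other way within each stage, at 262 and 55.1 TPM in CPF against 96.5 and 33.6 TPM in DMSO.

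Outside these lists the coding genes that were lowest at both stages, among those with a mean of at least 10 TPM, were few. Besides those described next, limma also called lower Rprm (log2 difference -1.26, limma adjusted p 0.0335) and Crabp2 (-1.16, 0.0389). At lower levels it called Ocm (-1.90, limma adjusted p 0.0194) and Slco1a4 (-1.92, 0.0182). Nell1 (chr7:49975350-50863289), a secreted protein of bone formation, was at 18.3 and 17.5 TPM in CPF and at 46.3 and 49.0 TPM in DMSO and fell by 1.36 ± 0.39 (limma adjusted p 0.0210, and 0.07 after NM scaling). Has2 (chr15:56665627-56694546), which makes hyaluronan, was at 29.5 and 20.9 TPM in CPF and at 67.6 and 47.2 TPM in DMSO (-1.15 ± 0.37, limma adjusted p 0.0553). Traf1, an adaptor of tumour necrosis factor receptors, was at 6.37 and 8.98 TPM in CPF and at 17.1 and 24.5 TPM in DMSO (-1.32 ± 0.46, limma adjusted p 0.082). For Nell1, Has2 and Traf1 the CPF and DMSO values were separate, and the ratios at the 2 stages differed little. These genes were picked for low ratios at both stages, so both traits partly follow from the choice. Hox genes, the homeobox factors of axial patterning, were lower at E16.5 with a median of -0.78 and near 0 at E18.5 (0.07, and -0.35 with NM scaling). Of 31 tested, 15 (48.4%, against 8.68% of all genes) were lower at both stages under both scalings and 0 were called by limma. Hoxd12 was at 4.09 and 2.68 TPM in CPF against 9.54 and 5.84 TPM in DMSO. Of 59 ribosomal protein genes 20 (33.9%, against 8.68% of all genes) were lower at both stages under both scalings and 3 higher, and 0 were called lower and 1 higher. Their medians were 0.04 and -0.12, and -0.16 and -0.59 with NM scaling. Rps3, a protein of the small subunit, was at 1430 and 1127 TPM in CPF against 2209 and 2354 TPM in DMSO (-0.84 ± 0.31, limma adjusted p 0.10).

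Small non-coding RNA genes made up 56 of the 70 genes called lower. Most rest on few reads: the median of the 56 genes was about 1 read in the CPF library of E16.5, 0 in that of E18.5, 8 in DMSO at E16.5 and 7 in DMSO at E18.5. In these total RNA libraries a value for a miRNA gene counts fragments over its short hairpin locus, not mature miRNA. Mature sequences are shown for the 2 miRNA genes lowest at both stages under both scalings among those with a mean of at least 10 TPM, to identify them, with the seed (bases 2 to 8) in capitals (RefSeq, GRCm38.p6, plus strand, chr10:122648412-122648433 and chr7:81529919-81529940).
mmu-miR-6412: uCGAAACCauccucagcuacua
mmu-miR-1839-5p: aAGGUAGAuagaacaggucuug
The seeds are different. Mir6412 was at 2.89 and 0 TPM in CPF and at 31.2 and 6.50 TPM in DMSO and fell by 2.98 ± 0.53 on the log2 scale (limma adjusted p 7.57e-06, and 0.0466 after NM scaling). Its length in RefSeq did not give whole reads, so no read counts are given for it. Mir1839 was at 4.50 and 8.70 TPM in CPF and at 34.6 and 30.3 TPM in DMSO, which is about 4.04 and 6.06 reads against 37.4 and 36.4, and fell by 2.19 ± 0.44. The groups did not overlap for Mir1839, and those of Mir6412 were also separate. Both genes were picked for low ratios at both stages, so this partly follows from the choice.

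The lower small RNAs with more reads included small nucleolar RNAs, the RNase P RNA and a copy of it. Rprl3 (chr8:3803125-3803359), a copy of the RNase P RNA gene, was at 46.3 and 73.9 TPM in CPF and at 134 and 183 TPM in DMSO, which is 134 and 166 reads against 466 and 707. It fell by 1.40 ± 0.35 (limma adjusted p 0.0042, and 0.0466 after NM scaling); because it resembles Rpph1, reads of the 2 genes may have been shared between them. Rpph1 itself was at 103160 and 98944 TPM in CPF and at 196790 and 260160 TPM in DMSO and fell by 1.16 ± 0.28 (limma adjusted p 0.00322). After NM scaling the Rpph1 difference was larger (-1.50) but did not pass (0.41), nor did Rpph1 pass without either stage (0.186 without E16.5 and 0.683 without E18.5). Snord64, a box C/D small nucleolar RNA, was at 37.8 and 41.8 TPM in CPF and at 91.2 and 93.0 TPM in DMSO, which is 21.4 and 18.3 reads against 62.2 and 70.3. Snord89 of the same class was at 13.9 and 21.3 TPM in CPF and at 38.3 and 49.6 TPM in DMSO. Both were lower in each CPF library than in each DMSO library, and both were picked for low ratios at both stages.

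Of 20 genes of cholesterol synthesis 16 were higher at both stages under both scalings and 5 rose, with medians of 0.70 and 1.04. Ebp, a sterol isomerase, was at 33.3 and 36.9 TPM in CPF and at 11.8 TPM in both DMSO libraries (log2 difference 1.49 ± 0.41, limma adjusted p 0.0162). Lss, which closes the sterol rings, and Srebf2, the transcription factor that drives the pathway, were also called (42.3, 34.2 against 16.1, 14.4 TPM, and 74.3, 61.5 against 39.5, 20.8 TPM). The CPF values of all 3 lay above the DMSO values, which partly follows from picking list members for 1 sign at both stages. Srebf2 did not pass without the E18.5 pair (limma adjusted p 0.101).

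Of 24 genes of fatty acid oxidation and targets of the fatty acid receptor PPAR-alpha, 16 were higher at both stages under both scalings and 6 rose. Acsl1, which activates long-chain fatty acids, was at 44.9 and 92.2 TPM in CPF and at 17.1 and 17.7 TPM in DMSO. Liver expresses Acsl1 strongly, and the summed liver list was 8002 and 1845 TPM in these CPF libraries. Of 16 hypoxia response genes 10 (62.5%, against 32.0% of all genes) were higher at both stages under both scalings and 3 rose. Ndrg1, a stress-induced gene, was at 80.6 and 574 TPM in CPF and at 33.4 and 79.6 TPM in DMSO (2.04 ± 0.34), and Slc2a1, the basal glucose transporter, was at 95.8 and 106 TPM against 43.4 and 43.5 TPM.

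Of 24 genes of the NRF2 and antioxidant list 12 (50%, against 32.0% of all genes) were higher at both stages under both scalings and 3 rose, with medians of 0.47 and 0.79. Of 28 genes of xenobiotic metabolism 10 (35.7%, near the 32.0% of all genes) were higher at both stages under both scalings. Lower at both were 2 (7.14%, near the 8.68% of all genes), and 5 rose by the test. Catalase (Cat), which breaks down hydrogen peroxide, was at 185 and 205 TPM in CPF and at 83.6 and 85.6 TPM in DMSO (1.19 ± 0.34, limma adjusted p 0.0207). Gstm1, a glutathione transferase, was at 75.05 and 54.2 TPM in CPF and at 14.9 and 25.99 TPM in DMSO (1.65 ± 0.37, limma adjusted p 0.00128). Hmox1, the heme-degrading stress enzyme, was at 32.2 and 35.8 TPM in CPF and at 25.8 and 12.9 TPM in DMSO and did not pass (0.86 ± 0.40, limma adjusted p 0.25). Perp, a target of p53 in the cell membrane, was at 69.0 and 44.7 TPM in CPF and at 11.8 and 12.9 TPM in DMSO and rose by 2.09 ± 0.39, the only call among 12 p53 targets.

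None of the 15 tested organophosphate targets and paraoxonases was called by limma, though 13 were higher at both stages under both scalings. Their medians of 0.55 and 0.88 compare with 0.13 and 0.57 for all genes. Pon2, an intracellular paraoxonase, was at 45.7 and 47.7 TPM in CPF and at 22.6 and 20.9 TPM in DMSO (1.07 ± 0.38, limma adjusted p 0.093). Bche, butyrylcholinesterase of plasma, was at 28.4 and 10.01 TPM in CPF and at 11.1 and 7.16 TPM in DMSO (0.86 ± 0.46, limma adjusted p 0.34). Chrna7, a subunit of the nicotinic acetylcholine receptor, was at 10.5 and 8.78 TPM in CPF and at 5.63 and 2.71 TPM in DMSO. Ache, the acetylcholinesterase gene, and the arylhydrocarbon receptor target Cyp1a1 were listed at or near 0 in all 4 libraries; each has 2 RefSeq transcripts, and genes with several were mostly near 0 in these files (22.0% reached a mean of 1 TPM, against 60.0% of genes with 1).

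Vessel and immune genes were mostly higher in CPF, with few calls. Of 15 endothelial genes 14 were higher at both stages under both scalings, with medians of 0.56 and 1.44, and 2 rose. Esam, an adhesion molecule of endothelial junctions, was at 53.7 and 70.6 TPM in CPF and at 27.9 and 21.9 TPM in DMSO (1.28 ± 0.37, limma adjusted p 0.0244, and 0.134 without the E18.5 pair). Of 14 macrophage genes 12 were higher at both stages under both scalings and 0 were called. Csf1r, the growth factor receptor of macrophages, was at 20.7 and 22.7 TPM in CPF and at 8.80 and 7.68 TPM in DMSO (1.30 ± 0.45, limma adjusted p 0.085). Of 17 Notch pathway genes 12 were higher at both stages under both scalings and 1 rose: Nrarp, a feedback inhibitor of Notch, at 37.3 and 40.7 TPM in CPF against 17.9 and 12.8 TPM in DMSO. It did not pass without the E18.5 pair (limma adjusted p 0.0968). Bmp4, a ligand that patterns ureter and stroma, rose from 16.8 and 10.6 TPM in DMSO to 37.5 and 37.3 TPM in CPF (1.42 ± 0.40, limma adjusted p 0.0225).

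**Figure D5:**
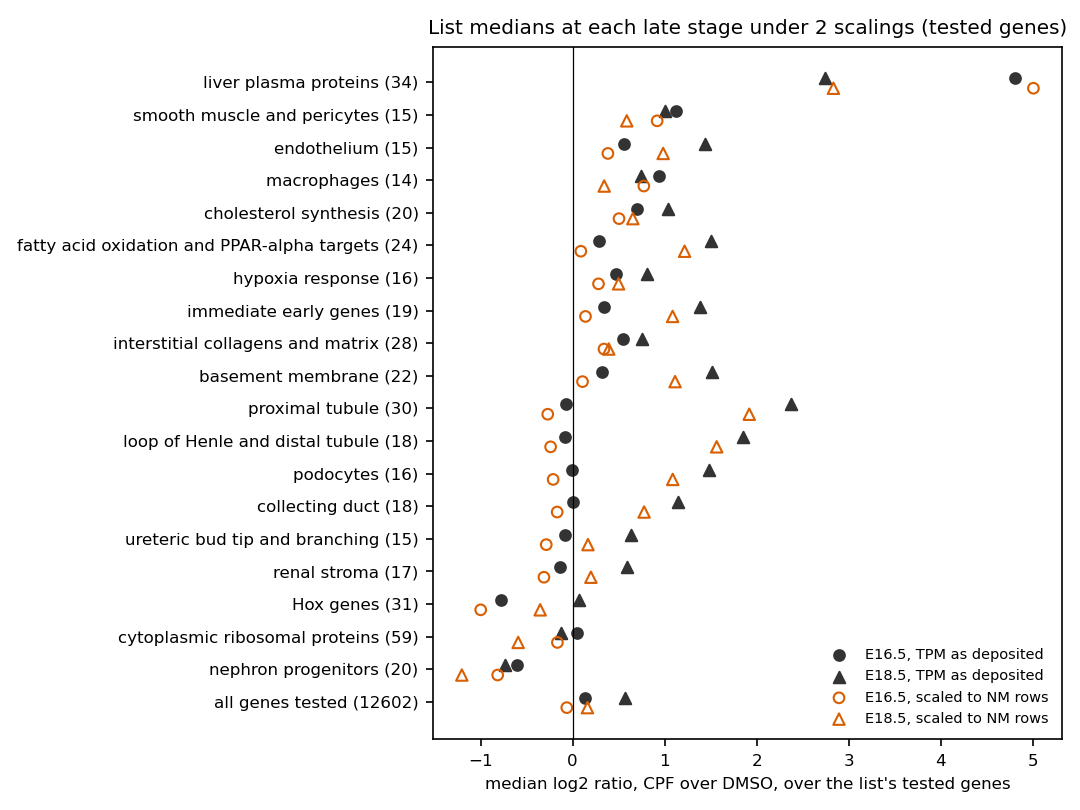
Median log2 ratio of TPM + 1, CPF over DMSO, of gene lists at E16.5 and E18.5, with TPM as deposited (filled) and scaled to NM rows (open), for the number of tested genes in brackets. As deposited, the median of all tested genes is 0.13 and 0.57. The liver list is highest (4.80 and 2.75), the nephron progenitors are lower at both stages (-0.60 and -0.73), and the proximal tubule list differs between stages (-0.07 and 2.38).

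Differentiated nephron segments differed in size between the stages. The 30 tested proximal tubule genes had a median log2 ratio of -0.07 at E16.5 and 2.38 at E18.5, and their sum was 736 and 8217 TPM in CPF against 680 and 1548 TPM in DMSO. Lrp2, the endocytic receptor megalin of the proximal tubule, was at 83.1 TPM in CPF and 106 TPM in DMSO at E16.5, and at 1197 and 211 TPM at E18.5. Slc34a1, the phosphate carrier of the brush border, was at 37.1 and 41.9 TPM at E16.5 and at 551 and 83.9 TPM at E18.5. Nphs1, the nephrin of podocytes, went from 7.42 and 9.09 TPM to 25.9 and 3.58 TPM, and Aqp2, the water channel of collecting duct, from 4.47 and 5.67 TPM to 149 and 42.2 TPM. At E16.5 the CPF library was slightly the lower one for all 4 genes, and at E18.5 it was the higher one. Of the proximal tubule genes 12 were called higher and 10 (33.3%, against 32.0% of all genes) were higher at both stages under both scalings. Of 18 collecting duct genes 4 (22.2%, against 32.0% of all genes) were higher at both and 1 lower (5.56%, against 8.68%), with medians of 0.01 and 1.15. Hnf4a, the transcription factor of proximal tubule and liver, was at 55.9 and 182 TPM in CPF and at 28.5 and 28.0 TPM in DMSO (1.80 ± 0.36, limma adjusted p 0.000104), and Gatm, of creatine synthesis, at 28.2 and 323 TPM against 15.8 and 37.2 TPM. Without the E18.5 pair neither passed (limma adjusted p 0.269 and 0.274), and Slc34a1, called over both stages (adjusted p 0.0395), had a difference of -0.17. Podxl, a coat protein of podocytes, was at 124 and 281 TPM in CPF and at 74.1 and 43.2 TPM in DMSO, and without the E18.5 pair it did not pass either (limma adjusted p 0.411).

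Whether the late difference was unlike the early one was tested in a fit over all 8 libraries. Of 13677 genes 18 differed (0.132%), 8 in the higher and 10 in the lower direction. Trf was at 34.6 TPM in CPF and 9.28 TPM in DMSO at E12.5, and at 581 and 117 TPM at E14.5, so its late difference exceeded the early one by 3.67 ± 0.42 on the log2 scale (limma adjusted p 0.000255). Alb was at 60.9 and 3.89 TPM at E12.5 and at 1668 and 278 TPM at E14.5, and its difference grew by 4.47 ± 0.50 (limma adjusted p 0.00456). In DMSO both genes were lower at E16.5 and E18.5 than at E14.5, and in CPF they were not lower at E16.5. Plvap, which builds the diaphragms of endothelial pores, was lower in CPF at the early stages (16.9 against 44.1 and 8.32 against 17.1 TPM) and higher at the late ones (65.3 against 36.7 and 92.4 against 40.6 TPM), a difference of 2.14 ± 0.41 (limma adjusted p 0.0305). Fam46c, which encodes a poly(A) polymerase, was at 118 and 188 TPM in CPF and at 13.8 and 22.8 TPM in DMSO at E12.5 and E14.5, and at 99.2 and 43.4 TPM against 73.9 and 68.2 TPM at E16.5 and E18.5 (-3.11 ± 0.40, limma adjusted p 0.000255). None of the 18 calls remained after NM scaling, where limma called 0 genes with 1688 at an unadjusted p under 0.05.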

How the data were processed

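Total RNA of embryonic kidney (2 µg of input per the labels' protocols) was sequenced. The authors deposited 1 TPM value for each RefSeq transcript, 32862 per library (28523 NM and 4339 NR); Trimmomatic, STAR and mm10 are named, without versions, per the submitters' processing notes. The step from alignments to transcript values is not described in the sources used here. Transcripts were summed to 24151 gene symbols, of which 25 listed as dates were restored from their identifiers. Depth was estimated from low values, of which 83.1 to 86.6% were whole multiples of 1 read within 0.1 read.

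Values were fitted as log2(TPM + 1), which understates folds of low genes, with limma 3.58.1 (R 4.3.3; mean-variance trend, robust moderation), stage and agent as terms, over the 4 late libraries (1 residual degree of freedom). Genes needed at least 1 TPM in at least 2 of the 4 libraries. Calls were at a Benjamini-Hochberg adjusted p under 0.05. The fit drew each gene's spread almost wholly from genes of like level, so the smallest p-values are not printed. The late minus early contrast used 8 libraries (2 residual degrees of freedom). Alternatives were NM scaling, quantile normalization, pseudocounts of 0.1 and 5, filters, genes with 1 transcript, plain moderation, the 8-library spread, stage left out and leaving out a stage pair. The early stages were otherwise left out.

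Genes named were the 12 highest and 12 lowest with the same sign at both stages under both scalings and a mean of at least 10 TPM, ranked by the smallest of the 4 absolute log2 ratios, a set list, up to 4 members of each of 48 lists ranked likewise, and up to 5 each way from the late minus early test. Afp, Crym, Wt1, Pax2, Gc and Igfbp1 were named after their values were seen. Unnamed gene models were left out. Not every gene chosen in this way is reported here. The comparison and the gene lists were chosen with earlier results of these data known. Gene coordinates and sequences are from RefSeq (GRCm38.p6).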

Additional observations from a re-analysis of the deposited data

Results flagged for a closer look

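Genes whose CPF minus DMSO difference was unlike between the late and the early stages by limma are given as late minus early values on the log2 scale. Toward higher in the late stages these were Alb (4.47), Trf (3.67), Fgg (3.00), Fgb (2.91), Plvap (2.14), Cotl1 (1.97), Mir200a (2.95) and Mir300 (3.04). Toward lower they were Fosb (-2.75), Mir3474 (-3.23), Mir128-1 (-3.95), Mir6353 (-3.28), Mir20a (-3.72), Mir1983 (-3.53), Mir135a-2 (-2.85), Cyct (-3.05), Snord64 (-1.87) and Fam46c (-3.11). Adjusted p by limma ran from 0.000255 (Trf and Fam46c) to 0.0481 (Fosb). Mir3474 and Mir6353 were at 0 in both late CPF libraries.

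Other results stood apart because the 2 late stages moved in opposite directions, which was not tested since each stage has 1 library per agent. The E18.5 median minus the E16.5 median was 2.45 for the proximal tubule list, 1.93 for the loop of Henle and distal tubule list and -0.74 for the replication-dependent histones. The log2 ratio at E18.5 minus that at E16.5 was 2.85 for Lrp2, 2.87 for Slc34a1, 2.81 for Nphs1, 2.08 for Aqp2 and -1.06 for Fam46c.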

How the results depend on the processing

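The count of 403 genes called in CPF minus DMSO became 12 with libraries scaled to NM rows, 0 with quantile normalization, 143 without the filter, 224 with no stage term, and 29 with NM scaling and all 8 libraries sharing the spread, which was chosen after seeing the data. Leaving out 1 stage pair gave 716 to 3080. Between 276 and 441 genes were called under the other alternatives run on this count. The count of 18 for late minus early became 0 with NM scaling, quantile normalization, no filter or plain moderation, 69 and 2 with pseudocounts of 0.1 and 5, 289 when the mean had to reach 5 TPM and 62 among genes with 1 RefSeq transcript. Leaving out 1 stage pair gave 52 to 2701 (63 without E12.5, 52 without E14.5, 2701 without E16.5 and 416 without E18.5). The count of 261 genes past 2-fold became 158 with quantile normalization, 123 with a pseudocount of 5 and 105 when the mean had to reach 20 TPM.

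Of 117 named genes 112 kept their direction under every alternative run. Leaving out 1 stage pair moved Lrp2 from -0.35 to 2.50, Slc34a1 from -0.17 to 2.70, Nphs1 from -0.26 to 2.55, Aqp2 from -0.29 to 1.79 and Fam46c from 0.42 to -0.64, the first value being without E18.5 and the second without E16.5. Of 1511 comparisons of a named gene with an alternative, 299 lost a call and 75 gained one. The causes were not tested. Depth limits the small RNAs, since 46 of the 56 called lower had under 10 reads in both CPF libraries. The stage term pairs the CPF and DMSO libraries of a stage, and the fit without that pairing gave the 224 calls above.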
